A study of Solanum tuberosum with 100 samples.

Results

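Cross 2121 is a family of 11 tetraploid potato genotypes (Solanum tuberosum) obtained by crossing Crop52 with V390. Its members were taken as the samples whose names carry the cross number 2121, which are 11 of the 100 samples of the series. The other 89 samples come from 10 further crosses of Crop52 with other second parents, so that all families are half-siblings through Crop52. Each sample is the pooled tissue of 3 tubers of 1 genotype, taken from the bruised side 2 h after a lead weight was dropped on the tuber, and polyA RNA was sequenced. All samples were bruised and no unbruised tuber was measured, so a difference between families may precede the impact or follow it. Each genotype was sequenced once, which means that the spread within a family holds genetic, plant and library variation together. The labels place 6 samples of cross 2121 in the high-bruising group, 1 in the low-bruising group and 4 in neither, here called intermediate. In the other crosses the counts were 27 high, 40 low and 22 intermediate. The family was chosen as a bruise-prone one, so these counts are a description.

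Blackspot bruising follows the rupture of tuber cells. Polyphenol oxidases, held in plastids, then meet phenolic substrates from the vacuole, and the quinones formed polymerise to melanin. Tubers also hold large amounts of patatin, a storage protein with lipid acyl hydrolase activity, and of protease inhibitors, which are wound-inducible in leaves, while lipoxygenases oxygenate the polyunsaturated fatty acids that lipases release from membranes.

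Tuber identity was checked on the summed level of the patatin genes, in CPM (counts scaled to the normalized library total). In cross 2121 it ran from 559 to 15380 CPM with a median of 3636. In the other crosses it ran from 660 to 12713 CPM with a median of 3202. AGPB1, the small subunit of the enzyme that makes ADP-glucose for starch, was detected in every sample, with at least 311 CPM. In pooled tissue, fewer cells of a type cannot be told apart from less RNA per cell. Total counts ran from 17964644 to 41650152 in cross 2121 and from 6832655 to 37849041 elsewhere. The mean log2 total was 24.45 in cross 2121 and 24.13 in the other crosses (permutation test, two-sided, p = 0.0881). On raw totals, before normalization, 1 CPM is 18.0 reads in the shallowest library of cross 2121 and 6.83 in the shallowest of the others.

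The question was which transcripts set this family apart once the bruising group was taken into account. Of 25163 genes, 2572 differed between cross 2121 and the other crosses at an adjusted p under 0.05 (10.2% of genes tested; edgeR quasi-likelihood test, Benjamini-Hochberg adjustment over all genes, bruising group as covariate). Of these, 1350 were higher in cross 2121 (5.37%) and 1222 were lower (4.86%). The called differences had a median size of 0.84 on the log2 scale, and 1122 of them were at least 1 on that scale. On simulated counts the test made more false calls than its threshold implies, so calls near 0.05 are the least certain. The simulation held no differences among the other crosses or between bruising groups, so it cannot say how often the real comparison calls falsely. A further fit had a mean for each cross and gave each other cross equal weight in place of each sample. Differences among the other crosses are then not part of the spread. That fit called 4095 genes, 2591 higher and 1504 lower, and limma-voom called 2891, of which 66.6% were higher. DESeq2 called 2633, of which 47.6% were higher. No gene separated the 11 samples fully from the other 89 in either direction. The family mean was the highest of the 11 crosses at 1140 of the 1350 higher genes, and the lowest at 736 of the 1222 lower genes, which were selected for that direction. Over all genes it was the highest at 9.80% and the lowest at 7.41%, where an even share is 9.09%. The same test for each other cross called between 208 genes (cross 2168) and 6234 genes (cross 2159), and crosses 2159 and 2165 were the only families with more calls than cross 2121. Cross 2121 is a single family, so these p-values measure its 11 genotypes against the spread of 89 samples and not against the spread of family means.

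The second principal component of log2 CPM, with 6.65% of the variance, had its highest family mean in cross 2121. Its samples lay between 1.01 and 53.29 with a median of 29.05, and the samples of the other crosses between -34.36 and 41.59 with a median of -5.35. Of the 11 samples highest on this component, 7 belonged to cross 2121. On the first component, with 10.06% of the variance, cross 2121 ranked 5 of 11.

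**Figure D1:**
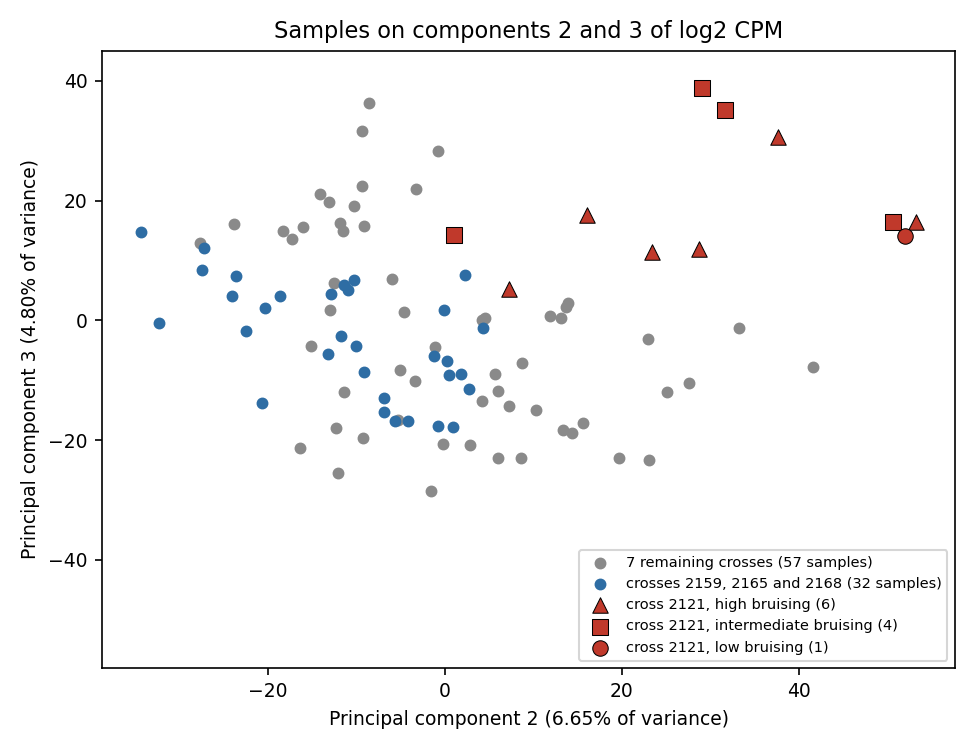
Position of the 100 samples on principal components 2 (horizontal) and 3 (vertical) of log2 CPM of the 2000 most variable genes; red symbols are cross 2121 by bruising group, blue points the crosses 2159, 2165 and 2168, grey points the 7 remaining crosses. The 11 red symbols lie at positive values on both axes, among and beyond the other samples.

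A list of 97 described genes was followed by role. It joins 40 genes that earlier work proposed for bruising with 57 genes that a DESeq2 test of high against low bruising called in these same samples. The table holds 92 of the 97, and 23 of these differed in cross 2121, 15 higher and 8 lower, or 25.0% of them beside 10.2% of all genes. The 57 genes chosen by bruising contributed 18 of the 23. They were chosen on samples that include cross 2121, so their share is not independent of the family. Of the 35 measured genes from earlier work, 5 differed, all of them higher and all lipid enzymes or patatins. The median log2 fold change was -0.02 over the 92 genes and -0.03 over all genes.

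**Figure D2:**
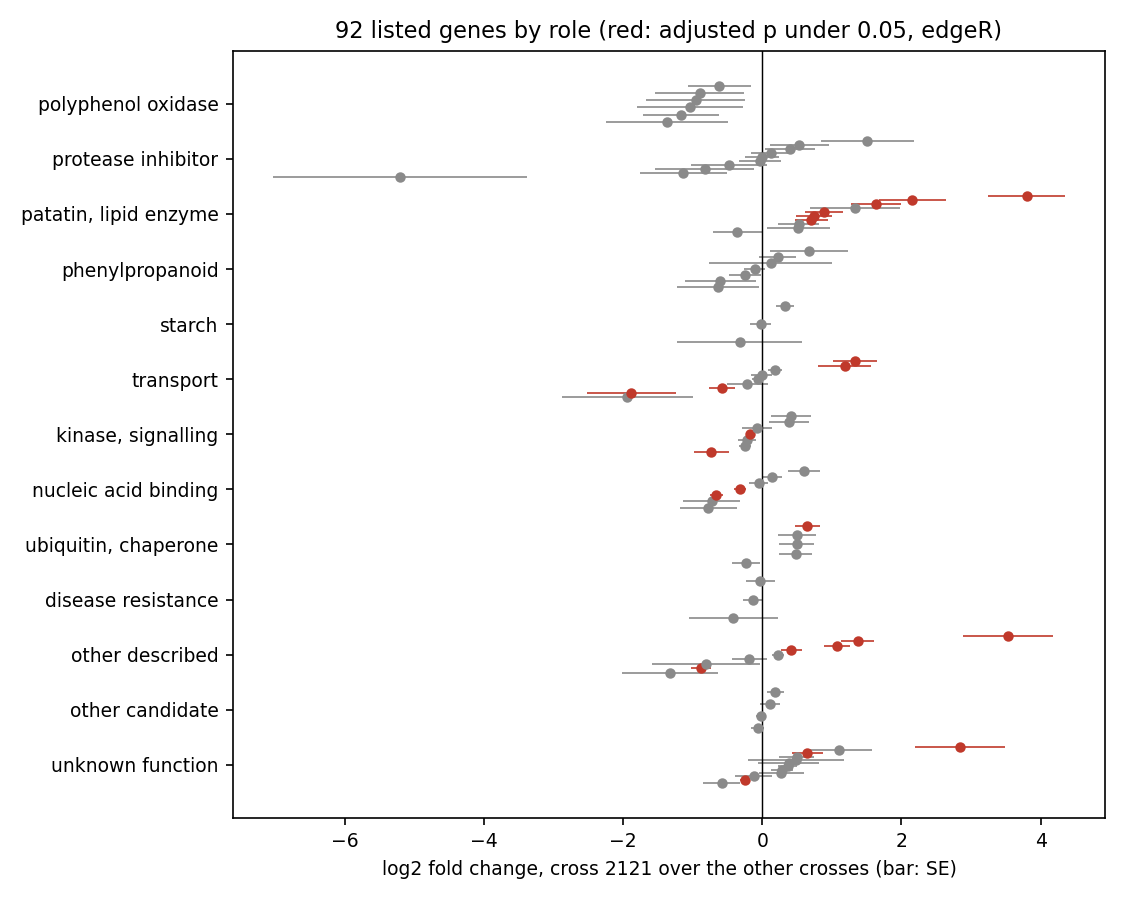
Log2 fold change of cross 2121 over the other crosses (horizontal axis, bars are SE) for the 92 measured genes by role; red marks the 23 genes past an adjusted p of 0.05. The red points of the patatin and lipid enzyme group all lie above 0, and the 6 polyphenol oxidases lie below 0 without passing.

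Of 10 measured patatin and lipid enzyme genes, 6 were higher in cross 2121 and none was lower, with a median log2 fold change of 0.82, where 5.37% of all genes were higher. The count of 6 fell to 3 without progeny 2, without progeny 4 and with limma-voom, and was 4 to 6 without any other sample of the family. A phospholipase gene near 60 Mb on chromosome 3 (PGSC0003DMG400002638), an enzyme class that cleaves fatty acids from membrane phospholipids, showed the largest change. Its level in cross 2121 ran from 0 to 30.1 CPM with a median of 2.87, against 0 to 18.7 CPM with a median of 0.0587 elsewhere. At least 1 CPM was found in 7 of the 11 samples and in 3 of the 89 others, which came from crosses 2155 and 2168. The log2 fold change was 3.80 ± 0.55 (SE; adjusted p = 3.05e-07, edgeR), and the groups overlapped, since 2 samples of cross 2121 had no read of the gene and only 1 exceeded all 89 others.

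A second phospholipase, a phospholipase A1 near 33 Mb on chromosome 2 (PGSC0003DMG401031759), ran from 0.443 to 90.6 CPM in cross 2121 with a median of 6.15, and from 0 to 35.3 CPM with a median of 2.84 elsewhere. The high values belonged to a few genotypes. Progeny 2, 3 and 8 had 90.6, 87.9 and 48.4 CPM, above every sample of the other crosses, while 5 samples of the family lay below the median of the others. The log2 fold change of 2.16 ± 0.48 (adjusted p = 0.00110, edgeR) therefore rested on these samples, and without progeny 3 the adjusted p was 0.0667. With limma-voom, which works on log values, the log2 fold change was 0.48 and the adjusted p 0.643. Another phospholipase A1 (PGSC0003DMG400010221) was near the detection limit throughout, at 0.594 CPM or less.

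Lipoxygenase LOX1-ST-2 (PGSC0003DMG400020999, near 6 Mb on chromosome 8) adds oxygen to linoleic and linolenic acid. It ran from 240 to 8582 CPM in cross 2121 with a median of 982, and from 52.2 to 2294 CPM with a median of 467 in the other crosses. Progeny 2 and 3, with 8582 and 5549 CPM, exceeded all 89 other samples, and 9 of the 11 samples exceeded the median of the others. The log2 fold change was 1.63 ± 0.36 (adjusted p = 0.000951, edgeR), and it fell to 1.08 with an adjusted p of 0.0548 without progeny 2. Progeny 2 and 3, an intermediate and the only low-bruising sample of the family, were thus the highest for both lipoxygenase and phospholipase A1.

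Triacylglycerol lipase III (PGSC0003DMG400007805, near 1 Mb on chromosome 12), which hydrolyses storage lipids, ran from 5.74 to 83.6 CPM in cross 2121 (median 51.99) and from 3.72 to 86.2 CPM elsewhere (median 22.5). Its log2 fold change was 0.88 ± 0.27 (adjusted p = 0.0225, edgeR). It passed in 9 of the 11 fits that left out a sample of the family, and the adjusted p was 0.0553 without progeny 4 and 0.0764 without progeny 7.

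Of the 5 patatin genes, 2 from the cluster at the start of chromosome 8 passed. Patatin-2-Kuras 4 (PGSC0003DMG400014104) ran from 242 to 6490 CPM in cross 2121 with a median of 1714, and from 201 to 3224 CPM with a median of 1130 elsewhere (log2 fold change 0.75 ± 0.26, adjusted p = 0.0460, edgeR). Patatin-04/09 (PGSC0003DMG402017090) ran from 179 to 4005 CPM with a median of 1126, against 144 to 1861 CPM with a median of 811 (0.71 ± 0.24, adjusted p = 0.0422). For both genes progeny 2 was the highest of all 100 samples, and without it the log2 fold changes were 0.31 (adjusted p = 0.532) and 0.29 (adjusted p = 0.522). Leaving out progeny 1, 4, 5, 6 or 10 also ended the call of Patatin-2-Kuras 4, at adjusted p between 0.0505 and 0.0817, and leaving out progeny 4, 5 or 10 that of Patatin-04/09, at 0.0687 to 0.0732. Patatin group O (0.52 ± 0.29), Patatin 3 (0.52 ± 0.45) and Patatin 05 (-0.36 ± 0.35) did not pass. These genes are close copies of each other, and reads that match several copies are not counted, so the division of reads among them is uncertain.

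The polyphenol oxidases did not pass in this comparison, in which 10.2% of all genes did. The 9 listed genes lie together near 46 Mb on chromosome 8, and 6 of them are in the table. All 6 fold changes were negative, from -1.37 to -0.62 on the log2 scale with a median of -0.997, and the smallest adjusted p was 0.166 (edgeR). With each other cross given equal weight they ran from -0.48 to -0.15 with a median of -0.34. The estimate of -1.37 belongs to polyphenol oxidase B (PGSC0003DMG400018925), which had no read in 9 of 11 and 74 of 89 samples. POT32 (PGSC0003DMG400018916) ran from 0.998 to 10.6 CPM in cross 2121 and from 0.367 to 83.0 CPM elsewhere, with medians of 5.16 and 5.02. The medians were alike, and what differed was the upper end, since 20 CPM or more was reached in 13 of the other samples and in none of cross 2121. Catechol oxidase B (PGSC0003DMG400029575), which takes the name of the reaction these enzymes catalyse, ran from 5.00 to 47.1 CPM with a median of 15.8, against 0.987 to 185 CPM with a median of 18.4. Another gene of the cluster (PGSC0003DMG400029576) had a median of 1.93 CPM in cross 2121 and 7.80 CPM elsewhere, with 0 of 11 and 14 of 89 samples at 50 CPM or more. Its log2 fold change of -1.04 ± 0.76 was within the spread of the samples (adjusted p = 0.429).

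Protease inhibitors gave no call in either direction among 10 measured genes, where 10.2% of all genes were called. Their median log2 fold change was -0.02. With equal weight for each other cross, cysteine protease inhibitor 1 (PGSC0003DMG400010139) was higher in the family (1.49, adjusted p = 0.0359), against 1.51 and 0.139 in the main comparison. The Kunitz-type proteinase inhibitor PGSC0003DMG400009512, of a family that blocks serine proteases, had medians of 3021 CPM in cross 2121 and 3110 CPM elsewhere, and a log2 fold change of 0.13 ± 0.29. Aspartic protease inhibitor 10 (PGSC0003DMG400010129) had the largest estimate in edgeR, -5.21 ± 1.82, with an adjusted p of 0.0509. With DESeq2 it was -0.07 (adjusted p = 0.981) and with limma-voom 0.34 (adjusted p = 0.874). It was at or under 0.659 CPM in all samples of cross 2121, and the difference came from 13 samples of 5 other crosses that reached 1 CPM or more, up to 208 CPM. The median of the other samples was 0, below the 0.0895 CPM of cross 2121. Miraculin (PGSC0003DMG400008546) had medians of 10.0 CPM in the family and 40.5 CPM elsewhere (-1.13 ± 0.63, adjusted p = 0.257).

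In this comparison 10.2% of all genes passed, so no call in a group of a few genes is near that share. None of the 7 phenylpropanoid genes passed, and their median log2 fold change was -0.11. They include enzymes that supply chlorogenic acid and lignin precursors, a peroxidase and anthocyanin synthase. None of the 3 starch genes and none of the 3 disease resistance genes passed either. AGPB1 was the nearest, at 0.33 ± 0.13 with an adjusted p of 0.0838.

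Several genes were split within cross 2121. The 16kDa membrane protein gene (PGSC0003DMG400005890, near 55 Mb on chromosome 6) was between 17.5 and 35.6 CPM in 6 samples and between 0.400 and 2.15 CPM in the other 5, with no value in between. In the other crosses the median was 0.228 CPM, and 3 of 89 samples, all from cross 2155, reached 10 CPM or more. Even the low samples of the family lay above the median of the others, so that all 11 did. The log2 fold change was 3.53 ± 0.65 (adjusted p = 5.19e-05, edgeR). The high samples were progeny 2 to 7, which include the low-bruising sample, 3 intermediate and 2 high-bruising samples.

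The gene described as pollen allergen Amb a 1.1 (PGSC0003DMG400023931, near 7 Mb on chromosome 9), named after a ragweed pectate lyase, was split in the same manner but between other genotypes. It was between 12.0 and 13.9 CPM in 7 samples and between 3.00 and 4.85 CPM in progeny 3, 4, 5 and 9. The other crosses ran from 0.771 to 11.8 CPM with a median of 2.93, so the 7 high samples exceeded all of them, and 2 samples of cross 2175 came nearest with 9 CPM or more. The log2 fold change was 1.37 ± 0.23 (adjusted p = 1.23e-05, edgeR). A gene of unknown function near 82 Mb on chromosome 1 (PGSC0003DMG400029752) ranged from 0.300 to 251 CPM within the family with a median of 53.4, and from 0 to 147 CPM with a median of 6.63 elsewhere. At 50 CPM or more were 6 samples of cross 2121 and 5 others, all of cross 2165 (log2 fold change 2.84 ± 0.64, adjusted p = 0.00139).

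**Figure D3:**
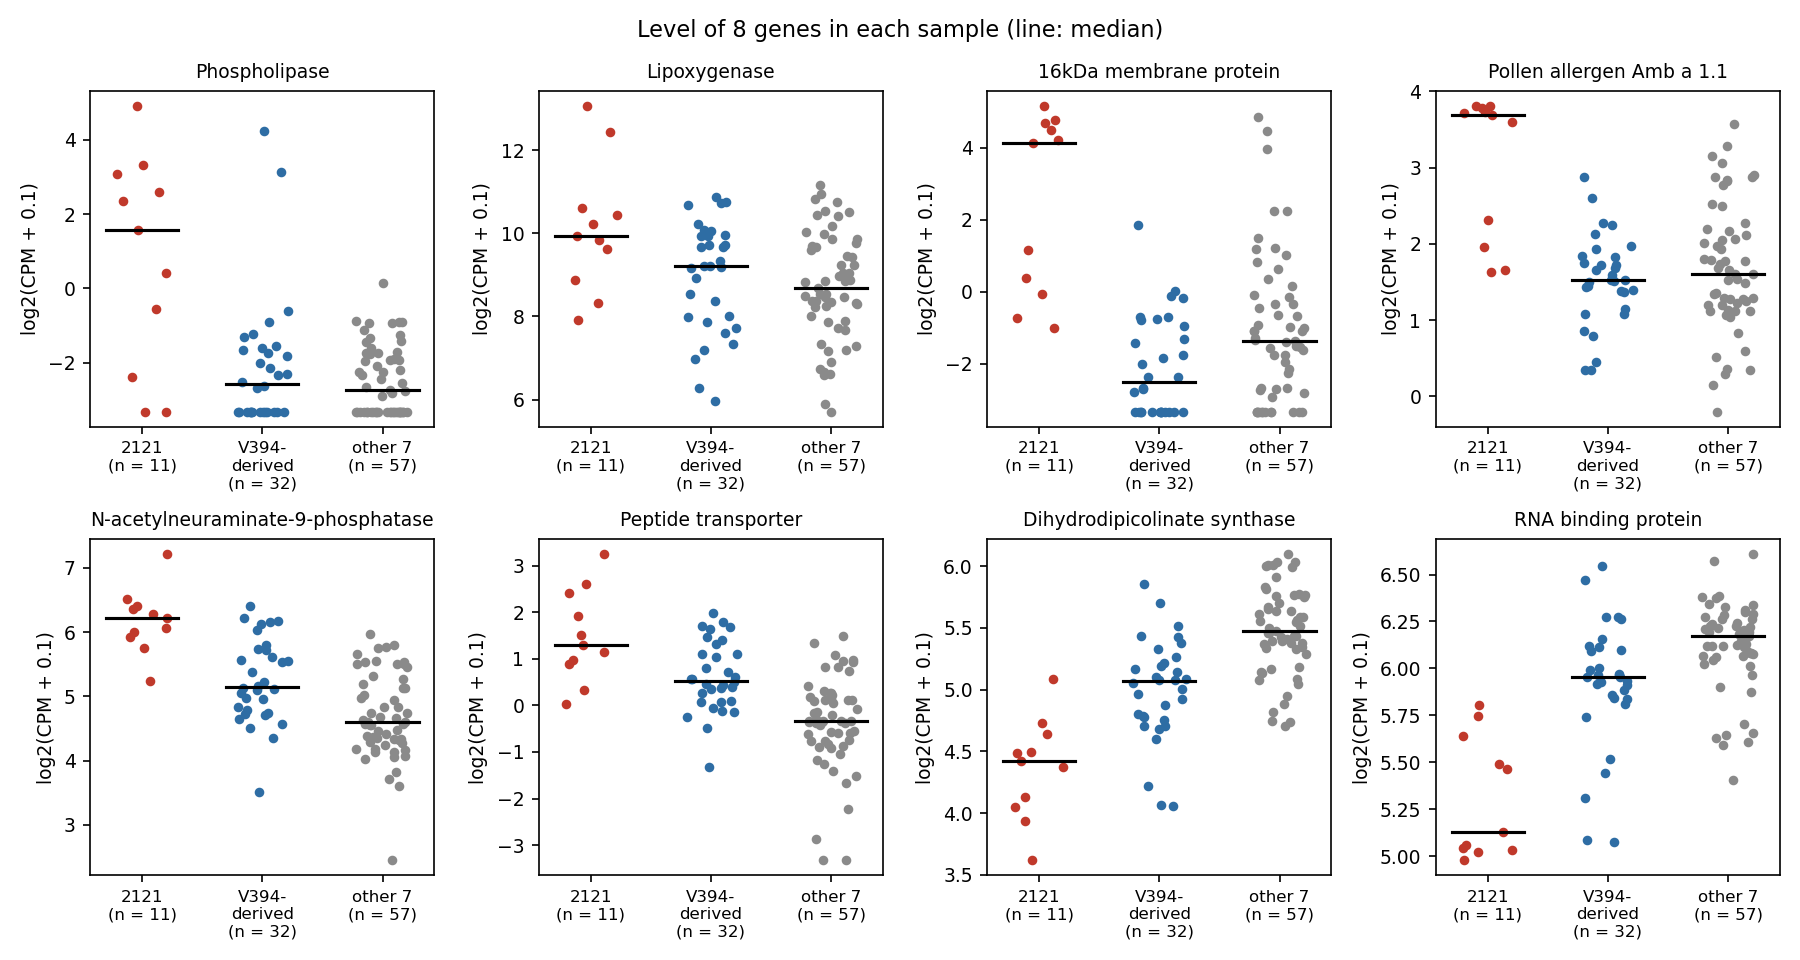
Level of 8 genes as log2(CPM + 0.1) (vertical axes) in each sample of cross 2121 (red, n = 11), of the V394-derived crosses 2159, 2165 and 2168 (blue, n = 32) and of the 7 remaining crosses (grey, n = 57), with the median as a line. The 16kDa membrane protein and the pollen allergen gene fall into separate high and low sets within cross 2121. Dihydrodipicolinate synthase and the RNA binding protein are shifted down in the whole family, the RNA binding protein with a gap between samples of the family.

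Other genes were shifted in the whole family. The RNA binding protein gene (PGSC0003DMG400027944, near 31 Mb on chromosome 9) had the smallest p of the listed genes. It ran from 31.4 to 55.9 CPM with a median of 34.9 in cross 2121 and from 33.7 to 97.4 CPM with a median of 69.2 elsewhere (log2 fold change -0.66 ± 0.09, adjusted p = 2.00e-07, edgeR). All 11 samples lay below the median of the others, and cross 2121 had the lowest mean of the 11 families, with 40.5 CPM against 44.5 CPM in cross 2168, the next. The RNA binding protein gene also had a gap within the family. Progeny 1, 2, 6, 7, 10 and 11 were at 34.9 CPM or less. Progeny 3, 4, 5 and 9, the low samples of the pollen allergen gene, had 53.6, 44.9, 49.7 and 55.9 CPM, and progeny 8 lay close below these. Whether the splits of both genes are related was not tested. Dihydrodipicolinate synthase (PGSC0003DMG400019758, near 9 Mb on chromosome 3), the entry enzyme of lysine synthesis, ran from 12.2 to 33.8 CPM with a median of 21.3, against 16.6 to 68.3 CPM with a median of 41.4 (-0.88 ± 0.14, adjusted p = 4.62e-06). It too was below the median of the others in 11 of 11 samples.

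N-acetylneuraminate-9-phosphatase (PGSC0003DMG400029856, near 58 Mb on chromosome 10), named after a mammalian enzyme of sialic acid synthesis, was above the median of the others in 11 of 11 samples. It ran from 37.6 to 148 CPM with a median of 74.0 in cross 2121 and from 5.37 to 84.8 CPM with a median of 28.3 elsewhere (1.07 ± 0.19, adjusted p = 3.83e-05, edgeR). The family mean was 76.3 CPM, followed by 64.9 CPM in cross 2165. Ubiquitin carboxyl-terminal hydrolase isozyme L3 (PGSC0003DMG400026229, near 51 Mb on chromosome 8), which releases ubiquitin from small adducts, ran from 3.22 to 8.33 CPM with a median of 5.10, against 0.821 to 8.46 CPM with a median of 2.91. Its log2 fold change was 0.65 ± 0.18 (adjusted p = 0.0122). The family mean of 5.36 CPM was close to the 4.96 CPM of cross 2165.

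Transporters moved both ways, with 44.4% of the 9 measured genes called beside 10.2% of all genes. These 9 come from the list chosen by bruising on the same samples. Peptide transporters carry di- and tripeptides or nitrate across membranes. The gene PGSC0003DMG400022107 ran from 0.922 to 9.39 CPM with a median of 2.35, against 0 to 3.87 CPM with a median of 0.948 (1.34 ± 0.31, adjusted p = 0.00217, edgeR), and PGSC0003DMG400006606 ran from 0.491 to 6.37 CPM with a median of 3.25, against 0 to 4.38 CPM with a median of 0.769 (1.18 ± 0.38, adjusted p = 0.0343). For both, 10 of 11 samples exceeded the median of the others. The oligopeptide transporters were lower, PGSC0003DMG400013297 with a median of 55.2 CPM against 91.3 CPM (-0.58 ± 0.19, adjusted p = 0.0373) and PGSC0003DMG400003820 with 0.396 CPM against 1.22 CPM (-1.88 ± 0.64, adjusted p = 0.0429). Only the first of the 4, PGSC0003DMG400022107, kept its call whichever sample of the family was left out. PGSC0003DMG400006606 lost it without progeny 1, 5 or 7 (adjusted p up to 0.0930). PGSC0003DMG400013297 passed in 5 and PGSC0003DMG400003820 in 3 of those 11 fits, with the largest adjusted p, 0.0855 and 0.0831, without progeny 2. The other 5 measured transport genes did not pass.

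The remaining called genes changed little or were close to the threshold. The DNA binding protein gene (PGSC0003DMG400012215) had medians of 8.55 and 11.6 CPM (-0.32 ± 0.09, adjusted p = 0.0119, edgeR). A conserved gene of unknown function (PGSC0003DMG400022661) had medians of 26.02 and 32.2 CPM (-0.24 ± 0.07, adjusted p = 0.0171), with an adjusted p of 0.0683 without progeny 2 and 0.0567 without progeny 8. Another conserved gene (PGSC0003DMG400015948) had medians of 15.5 and 7.01 CPM (0.64 ± 0.22, adjusted p = 0.0463). These genes have no assigned role here beyond their names. The auxin-regulated dual specificity kinase PGSC0003DMG400004363 (-0.73 ± 0.25, adjusted p = 0.0455), the GTP-binding alpha subunit PGSC0003DMG400033681 (-0.18 ± 0.06, adjusted p = 0.0452) and KLTH0D16148p, PGSC0003DMG400017364 (0.42 ± 0.15, adjusted p = 0.0493), were also near it. The conserved gene PGSC0003DMG400015948, the kinase and the alpha subunit each passed in 3, and KLTH0D16148p in 4, of the 11 fits that left out a sample of the family. The largest adjusted p in those fits was 0.102 without progeny 7 for PGSC0003DMG400015948 and 0.0979 without progeny 2 for the kinase. It was 0.107 without progeny 1 for the alpha subunit and 0.129 without progeny 5 for KLTH0D16148p.

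The genes that came nearest to separating the family carry no description in the sources used here. For PGSC0003DMG400011113, cross 2121 had the higher value in 99.8% of the pairs formed by a sample of the family and another sample. Its level ran from 0.829 to 2.45 CPM with a median of 1.58, against 0 to 1.07 CPM with a median of 0.133 (3.05 ± 0.46, adjusted p = 7.28e-07, edgeR). For PGSC0003DMG402009815 the share was 99.7%, with 15.3 to 66.9 CPM and a median of 29.0 against 0.977 to 22.5 CPM and a median of 4.68 (2.57 ± 0.27, adjusted p = 5.12e-12). In each gene 9 of the 11 samples exceeded all 89 others. In the lower direction, PGSC0003DMG400009277 ran from 15.1 to 27.9 CPM against 20.7 to 41.3 CPM (-0.65 ± 0.09, adjusted p = 1.86e-08), and 9 of the 11 samples lay below all others. PGSC0003DMG400014248 ran from 29.3 to 57.5 CPM against 46.5 to 95.2 CPM (-0.55 ± 0.09, adjusted p = 3.09e-06). Both had the higher value in cross 2121 in 4.19% of the sample pairs.

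**Figure D4:**
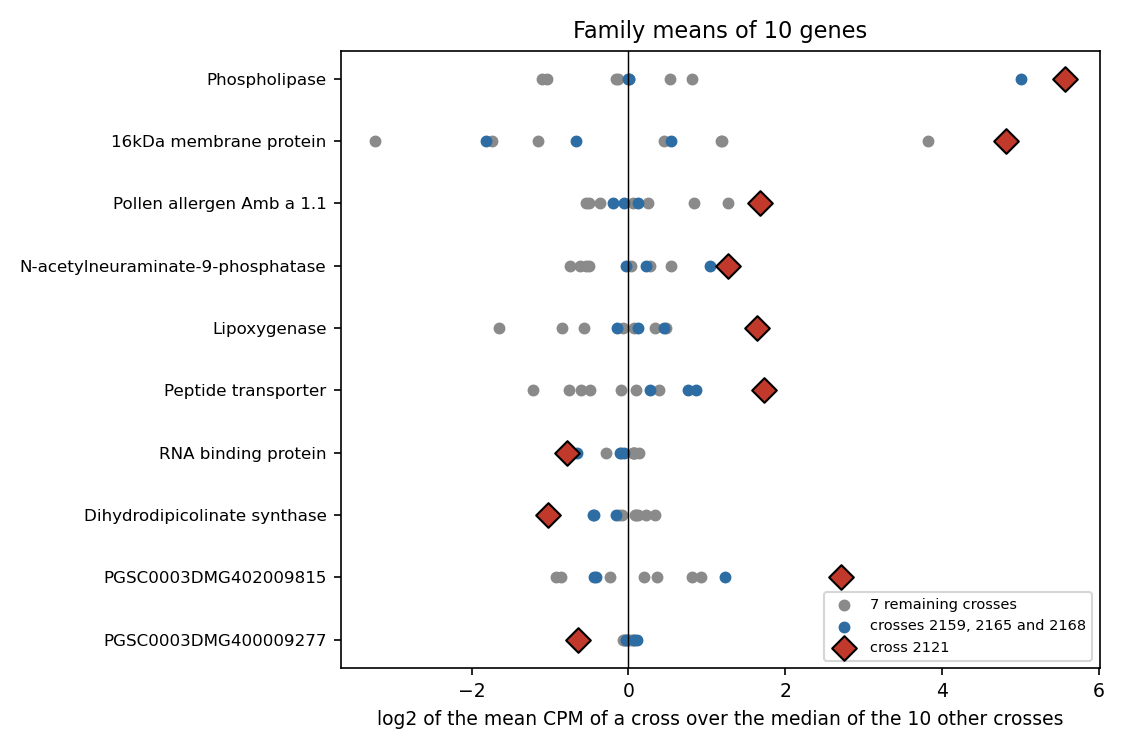
Mean CPM of each cross as log2 ratio to the median of the 10 other crosses (horizontal axis) for 10 genes; red diamonds are cross 2121, blue points the crosses 2159, 2165 and 2168, grey points the 7 remaining crosses. Cross 2121 is the outermost family for each of these genes, far from the next for PGSC0003DMG402009815 and close to it for the RNA binding protein. Its lipoxygenase mean rests largely on progeny 2 and 3, with 8582 and 5549 CPM.

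Presence and absence were described at 1 CPM. Of all genes, 27 reached this level in at least 2 samples of cross 2121 and in none of the other 89 samples, and the same count was between 4 and 25 for the other crosses, whose sizes ran from 5 to 16 samples. Of these 27 genes, 4 were found in 6 or more of the 11 samples, and the most frequent in 8. No gene reached 1 CPM in 9 or more samples of the family and in no other sample, and 1 did so while reaching it in at most 4 others. In the other direction, 2 genes reached 1 CPM in at most 2 samples of cross 2121 and in 71 or more of the others.

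Crosses 2159, 2165 and 2168 have as second parents Driver, Crop18 and Moonlight, which descend from V394. In the study's marker data, the STRUCTURE method gave these parents their highest membership in the subpopulation of V390. Its DAPC method placed V390 in a cluster apart from them. The study states that a shared lineage of V390 and V394 is not known, and proposes one from the STRUCTURE result. Against the 32 samples of crosses 2159, 2165 and 2168, 2245 genes differed in cross 2121 (8.92%), 1241 higher (4.93%) and 1004 lower (3.99%). Against the 57 samples of the 7 remaining crosses, 2673 differed (10.6%), 1350 higher (5.37%) and 1323 lower (5.26%). Both contrasts use the same 11 samples of cross 2121. They had 1307 called genes in common, which is 58.2% of the first set and 48.9% of the second. Of the 23 listed genes, 10 passed both contrasts, 1 passed only the first, 10 only the second and 2 neither.

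The genes that passed both included the phospholipase PGSC0003DMG400002638, with log2 fold changes of 3.04 and 4.45, and dihydrodipicolinate synthase, with -0.62 and -1.05. They also included the 16kDa membrane protein, with 5.75 against the V394-derived crosses, where no sample reached 10 CPM, and 2.98 against the others. Triacylglycerol lipase III passed only against the V394-derived crosses (1.23, adjusted p = 0.00190, edgeR; 0.69 and 0.0953 against the others). The oligopeptide transporter PGSC0003DMG400013297 passed only against the 7 others (-0.75, adjusted p = 0.00427; -0.27 and 0.408 against the V394-derived crosses). POT32 was lower in cross 2121 than in the V394-derived crosses, with medians of 5.16 and 11.6 CPM (-1.85 ± 0.54, adjusted p = 0.0160), and had a median of 3.67 CPM in the 7 others (-0.22 ± 0.49, adjusted p = 0.834). Cross 2159 had the highest POT32 mean of the other crosses, 22.3 CPM. No other measured polyphenol oxidase passed against the V394-derived crosses (smallest adjusted p 0.244, edgeR), where 8.92% of all genes did. Cysteine protease inhibitor 1 (PGSC0003DMG400010139) was higher than in the V394-derived crosses, with medians of 46.2 and 13.9 CPM (2.81 ± 0.65, adjusted p = 0.00175), and its median in the 7 others was 52.6 CPM (0.58 ± 0.73, adjusted p = 0.674). Whether a gene's difference from the one set of crosses exceeded that from the other was not tested.

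Because 6 of the 7 samples of cross 2121 with a high or low label are high-bruising, the family enters the comparison of high with low bruising mostly on one side. With edgeR, 46 genes differed between 33 high- and 41 low-bruising samples (0.183%), and 14 did so without cross 2121 (0.0556%), 12 of them in common. With DESeq2, which was not run without each other cross, the counts were 57 and 11, with 10 in common. DESeq2 left 3903 genes without an adjusted p with all crosses and 1 without cross 2121. Its counts were thus adjusted over different numbers of genes, and the part of this in the change was not tested. Removing the family removed 7 of 74 samples. When each other cross was left out in its place, a choice made after the count without cross 2121 was seen, edgeR called between 25 genes (without cross 2159) and 85 genes (without cross 2168), so the count without cross 2121 was the lowest of the 11. Over the 57 genes the fold change kept its sign in all 57 and was smaller in size in 41, with a median ratio of 0.895 of the value without the family to the value with it. For the 18 of these genes that differed in cross 2121 the median ratio was 0.819, and for the other 39 it was 0.990. This split is a description, since both values use the same samples.

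The phospholipase PGSC0003DMG400002638 had high-over-low values of 3.39 ± 0.66 with the family and 3.25 ± 0.62 without it (adjusted p = 0.00685, edgeR). The value without the family rested on few samples. Of the 27 high-bruising samples of the other crosses, 2 of cross 2168 had 18.7 and 8.67 CPM and 1 of cross 2155 had 1.01 CPM, while the remaining 24 had a mean of 0.121 CPM, near the 0.111 CPM of the 40 low-bruising samples. The 57 genes were chosen by DESeq2 on all crosses, so its call of all 57 there was fixed, and it called 10 without cross 2121. Of the same genes, edgeR called 13 with all crosses and 3 without cross 2121. The 3 were the phospholipase, Phi-2 (PGSC0003DMG400025889, 0.53 ± 0.10) and the gene of adenosine monophosphate binding protein 1 (PGSC0003DMG400014638, 0.87 ± 0.19). The peptide transporter PGSC0003DMG400022107 had 0.98 ± 0.26 with the family and 0.49 ± 0.26 without it, and the pollen allergen gene 0.77 ± 0.20 and 0.44 ± 0.20. The 16kDa membrane protein gene had 0.54 ± 0.65 and 0.07 ± 0.66, both within the SE. None of the 3 passed in edgeR with or without the family. These were the called genes with the lowest ratios. The study's DESeq2 test gave the 16kDa membrane protein gene a larger fold change with all crosses, so its estimate depended on the test. So did that of aspartic protease inhibitor 10, at -0.29 ± 0.87 and -0.02 ± 0.93 in edgeR. For both genes the ratio is uncertain.

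**Figure D5:**
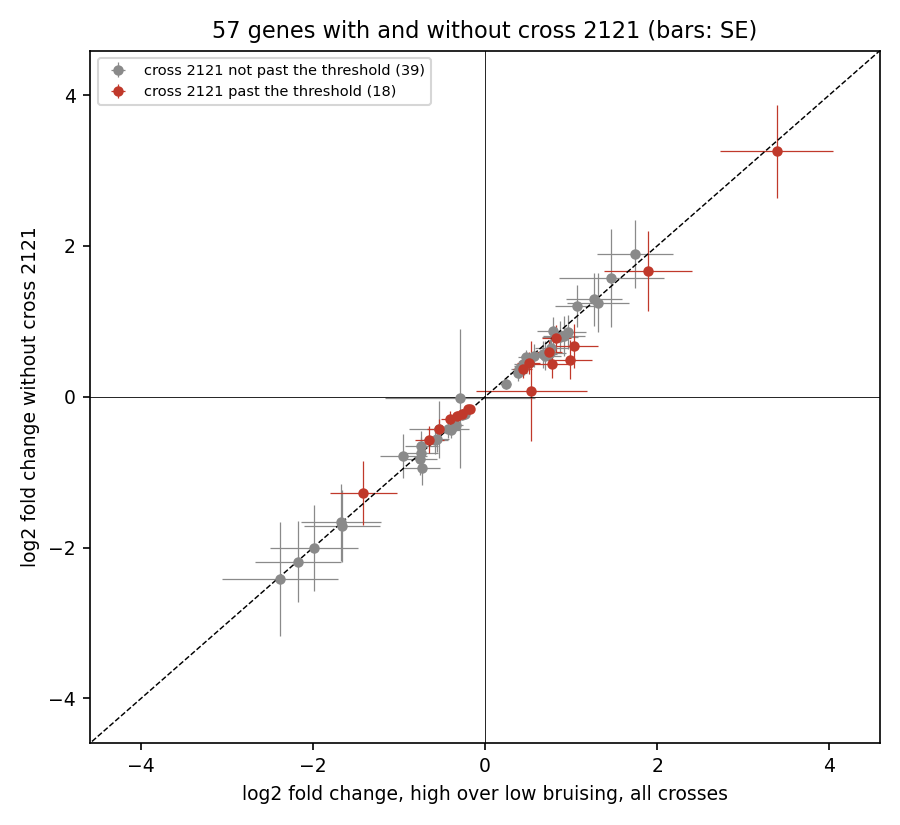
Log2 fold change of high over low bruising for 57 genes with all crosses (horizontal axis) and without cross 2121 (vertical axis), with SE bars and the line of equality dashed; red marks the 18 genes past the threshold in cross 2121. All points keep their sign, and the red points lie nearer to 0 on the vertical axis, with a median ratio of 0.819.

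Among high-bruising samples alone, 225 genes differed between the 6 of cross 2121 and the 27 of the other crosses (0.894%), and 210 of these were among the 2572. All 23 listed genes kept their direction and 2 passed, dihydrodipicolinate synthase (-0.90, adjusted p = 0.0283, edgeR) and the peptide transporter PGSC0003DMG400022107 (1.73, adjusted p = 0.0122). This fit has fewer samples than the full comparison. No gene passed a test of whether the difference of cross 2121 from the others depended on the bruising group, high or intermediate (edgeR, smallest adjusted p 0.466, with 1230 of 25163 genes at an unadjusted p under 0.05). With 4 intermediate samples in the family, such a dependence may have gone undetected.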

How the data were processed

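Tubers of 100 genotypes from 11 crosses with Crop52 were measured by polyA RNA sequencing, 11 of them from cross 2121. Per the study's methods and the submitters' notes, the authors checked reads with FastQC 0.11.7, removed ribosomal reads, trimmed, aligned to the PGSC-DM genome (v4.03) and counted with STAR 2.6.1, which counts uniquely aligned reads only, so close copies of a gene can lose reads. They removed genes with low counts before deposit. The strand setting of the counting is not given in the sources used here. The values are counts, as the authors deposited them, whole numbers without normalization, for 25163 genes and 100 samples.

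Groups came from the sample titles. Counts were tested with edgeR 4.0.16 in R 4.3.3 (TMM, quasi-likelihood F test, Benjamini-Hochberg adjustment over all genes, threshold 0.05), with the bruising group as covariate. SE is the size of the fold change divided by the root of F. CPM uses TMM-scaled library sizes. Principal components used log2 CPM with a prior count of 2. DESeq2 1.42.0, limma-voom (limma 3.58.1) and other scalings, filters, covariates and sample sets were alternatives. On simulated counts without differences among the other crosses, the test made more false calls than its threshold implies. Total counts ran from 6832655 to 41650152, and 1 CPM in the shallowest library is 6.83 reads on its raw total.

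Names, roles and approximate positions of 97 genes came from the study's tables. The reference gene table matched 0 of the identifiers, so other genes are given without names and no sequence is shown. Named genes are listed genes past the threshold, ordered by role, with polyphenol oxidases, patatins and protease inhibitors also where they did not pass, and the 2 undescribed genes in each direction with the most one-sided share of sample pairs; AGPB1, Phi-2 and adenosine monophosphate binding protein 1 are named outside this rule, after their values were seen. The comparison and the gene lists were chosen with earlier results of these data known. Nothing in the labels says that samples are more than single pools, so p-values measure the spread between single samples.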

Additional observations from a re-analysis of the deposited data

Results flagged for a closer look

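The samples of cross 2121 were screened gene by gene for values that stand apart within its 6 high-bruising and its 4 intermediate samples, as a gap to the nearest sample divided by the range on the log2 CPM scale. Of 54 such groups, 5 exceeded the 95% limit of Dixon's ratio, where chance flags about 1 in 20. Progeny 5 was low among the intermediate samples for the pollen allergen gene PGSC0003DMG400023931, with 3.80 CPM beside 12.0 CPM in the next (ratio 0.882), which is the split between high and low genotypes given above. Progeny 2 was high among them for N-acetylneuraminate-9-phosphatase, with 148 CPM beside 82.1 CPM (ratio 0.851), as it was for lipoxygenase, Patatin-2-Kuras 4 and Patatin-04/09. Progeny 11 was low among them for the gene of unknown function PGSC0003DMG400029752, with 53.4 CPM beside 200.1 CPM (ratio 0.854). Progeny 8 was low among the high-bruising samples for PGSC0003DMG400022661, with 18.7 CPM beside 25.0 CPM (ratio 0.703), and for PGSC0003DMG400014248, with 29.3 CPM beside 41.997 CPM (ratio 0.677). It was the highest of all 100 samples at 640 genes, against 65 to 692 genes for the samples of the other crosses. The part of depth or tissue in these values was not tested.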

How the results depend on the processing

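The count of 2572 genes for cross 2121 against the other crosses stayed within 1.5 times under DESeq2-type size factors, upper-quartile scaling, both filters, DESeq2, limma-voom, robust dispersion, library size as a term and no bruising covariate, from 1805 to 3087. It was 741 with high- and low-bruising samples only, 225 with high-bruising samples only, 4095 with equal weight for the other crosses and 1004 at a threshold of 0.01. The first 2 of these use fewer samples. The equal-weight fit also takes differences among the other crosses out of the spread, and the part of each change was not tested. Higher genes were 52.5% of the calls, and 66.6% with limma-voom, 62.9% with high and low samples, 67.6% with high samples, 63.3% with equal weight and 65.3% at the stricter threshold. They were 49.8% with upper-quartile scaling and 47.6% with DESeq2, so which direction held more calls depended on the setting. Leaving out a sample of cross 2121 gave 1948 (without progeny 7) to 2406 genes, and leaving out another cross 2350 to 2940. The contrasts with the V394-derived and the 7 remaining crosses kept their counts within 1.5 times under other size factors and without the covariate. No call of a named gene changed sign in any alternative. Of the 23 listed genes called, 10 kept their call in all 21 fits that left out a sample or a cross.

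Replicate numbers say which of a genotype's biological replicates was sequenced and do not pair samples. With the replicate number as a block (replicate block), 2559 genes were called for cross 2121, and 28 in place of 46 for high against low bruising, or 8 in place of 14 without cross 2121. The replicate block moved the adjusted p of KLTH0D16148p, Patatin-2-Kuras 4 and Patatin-04/09 to 0.0509, 0.0523 and 0.0507. Leaving out each other cross gave 25 to 85 genes for high against low bruising. Genes at 1 CPM in 9 or more samples of cross 2121 and at most 4 others numbered 1, and 2 at 2 CPM, and the genes at 1 CPM in at most 2 of its samples and 71 or more others numbered 2, and 1 at 0.5 CPM. Depth limits genes near 1 CPM, where on raw totals the shallowest library of the family has 18.0 reads and the shallowest other 6.83.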

Other observations

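The samples of cross 2121 shared its differences to an unequal degree. For the 1350 higher genes, each sample lay above the median of the other crosses in 73.2% (progeny 9) to 91.5% (progeny 7) of genes, and for the 1222 lower genes below it in 70.3% (progeny 8) to 78.5% (progeny 6). These genes were chosen on the same samples, so the values are a description. The low-bruising sample, progeny 3, had 87.7% and 73.7%, within the range of the others. Over genes with a mean of 1 CPM or more, the median SD of log2 CPM among the samples of a family was 0.383 in cross 2121 and between 0.339 and 0.385 in the other crosses.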
